A study of Drosophila melanogaster with 3 samples.

Results

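The small-subunit cytosolic ribosomal protein genes of Drosophila melanogaster encode the proteins of the subunit that binds mRNA and decodes it. They were taken from the Ensembl annotation as the protein-coding genes whose symbol begins with RpS and a digit, together with sta, which encodes another protein of the same subunit. This gave 39 genes of 13945 protein-coding genes on the main chromosome arms. The genes of mitochondrial ribosomes (mRpS) were not included.

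Their promoters were examined in chromatin immunoprecipitation sequencing (ChIP-seq) of whole prepupae carrying a transgene for CG6808, a zinc finger protein also named Zaf1, with enhanced GFP fused to its C-terminus. There were 3 biological replicates of this 1 genotype and stage, each of pooled males and females, so no condition was compared with another, and p-values are not given. The sample descriptions state that an antibody to GFP was used, whereas the antibody field names CG6808, and the age is given as 24 days, which is unusual for prepupae. The tagged protein came from a transgene in whole animals, so the tissue that gave a signal is unknown. One control shared by the replicates stood behind the called regions, untagged or mock precipitates were not analysed here, and read depth is unknown.

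In flies, ribosomal protein genes are among the most strongly transcribed genes, and their promoters are known for starting transcription within a pyrimidine-rich stretch, the TCT initiator. Many of these promoters are also known for the DNA replication-related element (DRE), bound by the factor DREF, or for Motif 1, bound by the zinc finger protein M1BP. Several small-subunit proteins are encoded by a pair of paralogous genes. RpS5b and RpS19b are known for expression in the germ line.

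The promoter sequences of 14 genes are shown because they include the 3 genes with the strongest regions, paralogs of which 1 copy or both had a region, and RpS27A, which had a region in 1 replicate only. The paralogs RpS15Aa and RpS15Ab are not shown. They were read from the Release 6 genome (dm6), 5′ to 3′ on the strand of the gene, with 90 bases before the transcription start site (TSS) and 30 bases from it. The TSS is the one nearest to the summit, or that of the canonical transcript where there was no summit. Capitals mark the core of the DRE, ATCGAT, and the letters CTTT on the sense strand in the first 25 transcribed bases.
RpS27: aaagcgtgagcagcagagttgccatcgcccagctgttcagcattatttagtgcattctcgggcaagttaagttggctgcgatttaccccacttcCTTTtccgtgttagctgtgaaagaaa
RpS4: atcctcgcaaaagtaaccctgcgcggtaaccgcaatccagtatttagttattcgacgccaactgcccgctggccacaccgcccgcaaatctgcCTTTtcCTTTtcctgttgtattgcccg
RpS25: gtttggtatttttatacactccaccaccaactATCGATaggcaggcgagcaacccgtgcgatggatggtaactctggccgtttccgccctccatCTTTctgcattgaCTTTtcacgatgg
RpS5a: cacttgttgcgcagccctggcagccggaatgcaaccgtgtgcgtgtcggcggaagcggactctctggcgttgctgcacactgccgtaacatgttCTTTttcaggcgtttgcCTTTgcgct
RpS5b: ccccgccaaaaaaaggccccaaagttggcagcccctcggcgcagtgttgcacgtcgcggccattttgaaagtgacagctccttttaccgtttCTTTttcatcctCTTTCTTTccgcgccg
RpS10b: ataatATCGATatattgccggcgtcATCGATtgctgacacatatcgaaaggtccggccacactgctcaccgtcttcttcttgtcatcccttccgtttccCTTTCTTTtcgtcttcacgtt
RpS10a: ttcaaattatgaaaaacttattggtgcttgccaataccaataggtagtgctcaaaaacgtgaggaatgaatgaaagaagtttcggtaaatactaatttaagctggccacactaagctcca
RpS14a: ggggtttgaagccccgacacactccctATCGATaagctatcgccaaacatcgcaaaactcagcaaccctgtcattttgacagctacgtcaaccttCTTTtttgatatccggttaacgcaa
RpS14b: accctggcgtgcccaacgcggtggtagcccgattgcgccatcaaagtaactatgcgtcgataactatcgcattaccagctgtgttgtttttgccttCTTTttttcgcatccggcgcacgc
RpS19a: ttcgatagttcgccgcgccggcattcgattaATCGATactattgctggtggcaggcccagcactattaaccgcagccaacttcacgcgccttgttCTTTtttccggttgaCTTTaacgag
RpS19b: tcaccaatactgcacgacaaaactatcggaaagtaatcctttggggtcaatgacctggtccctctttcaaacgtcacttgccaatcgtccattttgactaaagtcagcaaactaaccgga
RpS28b: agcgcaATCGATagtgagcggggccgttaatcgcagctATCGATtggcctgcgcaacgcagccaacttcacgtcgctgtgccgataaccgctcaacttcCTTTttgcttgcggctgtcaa
RpS28a: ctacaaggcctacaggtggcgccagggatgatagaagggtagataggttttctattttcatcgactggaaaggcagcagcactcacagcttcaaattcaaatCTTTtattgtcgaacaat
RpS27A: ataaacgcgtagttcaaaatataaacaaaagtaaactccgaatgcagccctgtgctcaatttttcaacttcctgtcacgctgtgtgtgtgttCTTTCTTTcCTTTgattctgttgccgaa
The stretches lie at chr3R:25247443-25247562 for RpS27 (minus strand), chr3L:13041711-13041830 for RpS4 (plus strand) and chr3R:11216258-11216377 for RpS25 (minus strand). Those of the paralogs lie at chrX:17148235-17148354 for RpS5a (minus strand), chr3R:14901534-14901653 for RpS5b (minus strand), chrX:19597950-19598069 for RpS10b (plus strand) and chr3R:27652670-27652789 for RpS10a (plus strand). The next are at chrX:7933652-7933771 for RpS14a (plus strand), chrX:7934808-7934927 for RpS14b (plus strand), chrX:16637804-16637923 for RpS19a (plus strand) and chr3R:23933501-23933620 for RpS19b (minus strand). The last are at chrX:9554533-9554652 for RpS28b (plus strand), chr3R:30022619-30022738 for RpS28a (minus strand) and chr2L:10408262-10408381 for RpS27A (plus strand). RpS10b and RpS28b each show 2 copies of the DRE core, RpS14a and RpS19a show 1, and their paralogs RpS10a, RpS28a, RpS14b and RpS19b show none. Of these paralogs RpS14b had a region too. RpS5a, which had a region, and RpS5b, which had none, both lack a copy. The pair not shown goes the other way. From 250 bases before to 50 from the TSS, RpS15Ab, without an IDR region, has 4 copies and RpS15Aa, with one, has 1. RpS25 shows 1 copy. The start of RpS27, which had the strongest region, lies beside a CTTT without a DRE core.

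Of the 39 genes, 26 had a summit of the reproducibility-filtered (IDR) list within 500 bp of a TSS and are called bound here. This is 66.7% (95% Wilson interval 51 to 79.4%, for counting error only), against 18.1% of all protein-coding genes. The bound genes included RpS2, RpS3A, RpS4, RpS5a, RpS6, RpS7, RpS9, RpS10b, RpS12, RpS14a, RpS14b, RpS15, RpS15Aa, RpS16, RpS18, RpS19a, RpS20, RpS21, RpS23, RpS25, RpS27, RpS28b, RpS29 and sta. The unbound genes included RpS3, RpS5b, RpS10a, RpS13, RpS15Ab, RpS19b, RpS24, RpS26, RpS27A, RpS28a, RpS28-like and RpS30. Bound genes thus made up the majority of the set, and the unbound ones included both single genes and the second copies of paralogs.

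The same count was made in every list, since the lists differ in length and in signal. The list from the pooled replicates, with 30000 regions, held summits at 28 of the genes (71.8%), against 32.2% of all genes. The full lists of replicates 1, 2 and 3, also of 30000 regions each, held summits at 31, 26 and 24 of the genes, against 38.2%, 33.5% and 31% of all genes. Among the 8091 strongest regions of each replicate, which is the length of the IDR list, the counts were 28, 25 and 20 genes (71.8%, 64.1% and 51.3%), against 20.7%, 17.7% and 16.5% of all genes. At equal list length the 3 replicates gave 62.4% ± 10.4 (SD, n = 3), and none of them came as low as the share of all genes, 18.3% ± 2.16 (SD, n = 3). Replicate 1 gave the highest share and replicate 3 the lowest, both for these genes and for all genes.

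Of the large-subunit cytosolic genes, 35 of 54 (64.8%) were bound in the IDR list, and their share in the equal-length replicate lists was 63.6% ± 14 (SD, n = 3). The difference between the subunits was smaller than the spread between replicates. Of the 26 genes for the small subunit of the mitochondrial ribosome, 5 (19.2%) were bound, with 20.5% ± 5.86 (SD, n = 3) in the equal-length lists, where every replicate was below every replicate of the cytosolic small subunit. These differences have no test, because the genes were chosen with results of these data known.

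**Figure D1:**
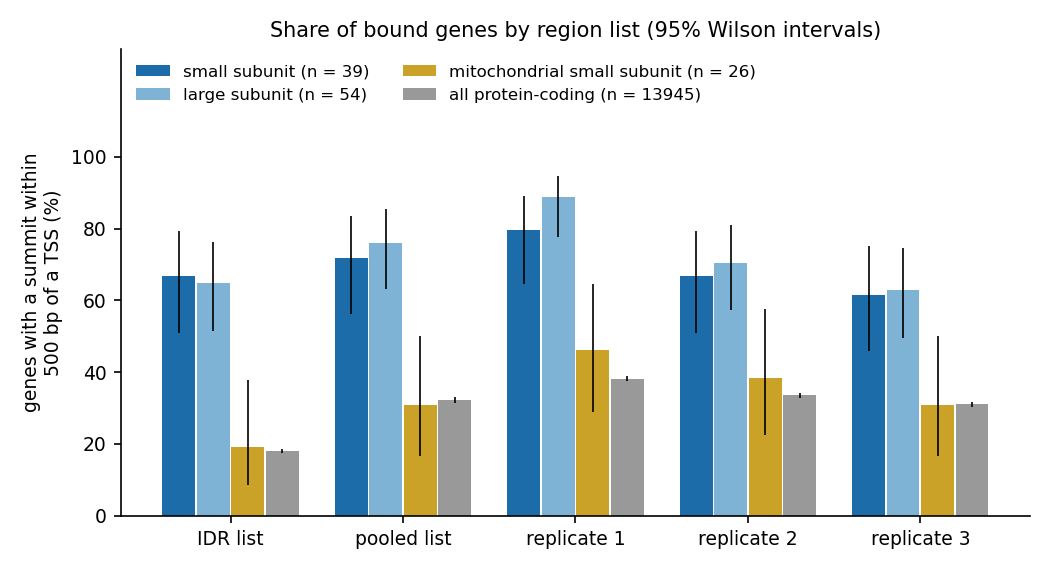
Share of genes (vertical axis, percent) with a summit within 500 bp of a TSS in each region list (horizontal axis) for small-subunit, large-subunit and mitochondrial small-subunit ribosomal protein genes and all protein-coding genes, with 95% Wilson intervals for counting error only. In the IDR list 66.7% of the small-subunit genes were bound, beside 64.8%, 19.2% and 18.1% of the other groups.

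By place in the subunit, 12 of 18 genes for proteins of the head and 14 of 20 for proteins of the body and platform were bound, and RpS28-like, in neither group, was not. By chromosome arm, bound genes were 9 of 9 on X, 4 of 4 on 3L, 5 of 7 on 2R, 5 of 12 on 3R, 2 of 6 on 2L and 1 of 1 on chromosome 4. Among all protein-coding genes the bound share was 21.1% on X, 18.6% on 3L, 16.6% on 2R, 17.6% on 3R, 17.3% on 2L and 12.5% on chromosome 4. The X was thus the arm with the most small-subunit genes bound, and every small-subunit gene on it had an IDR summit.

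The signal of a region is the authors' measure of its height over control, and it is not scaled between lists. The IDR signals are those of the pooled list, of which the IDR list is the strongest 8091 regions. The highest signal among the bound small-subunit genes was 931 at RpS27, which ranked 839 of 8091. Their median signal was 336.74, and that of all 2519 bound genes was 335.392, a ratio of 1. In the strongest 8091 regions of replicates 1, 2 and 3 this ratio was 1.06, 0.901 and 1.06, or 1.01 ± 0.0918 (SD, n = 3), so at equal list length the median differed from that of all bound genes by less than the replicates did. In the full replicate lists, which hold weaker regions too, the ratio was 1.77, 1.78 and 1.68, or 1.74 ± 0.0551 (SD, n = 3), above 1 in every replicate.

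The bound genes lay in the middle of the IDR list. In quartiles of IDR rank from the strongest on, they numbered 6, 9, 10 and 1 (23.1%, 34.6%, 38.5% and 3.85%). All bound genes fell 33.7%, 25%, 22.4% and 18.9% into the same quartiles. The large-subunit genes had a median signal ratio of 1.21 in the IDR list and 1.23 ± 0.22 (SD, n = 3) in the equal-length replicate lists. In the full replicate lists the large-subunit ratios were 2.03, 2.12 and 1.91, each above every small-subunit ratio. In the equal-length lists the ratios of the subunits overlapped in part, with 1.27, 1.43 and 0.995 for the large subunit.

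RpS27 encodes a zinc-binding protein of the platform side of the subunit. Its region had an IDR signal of 931 (rank 839), and signals of 445, 275 and 208 in replicates 1, 2 and 3. Divided by the median of all bound genes in the same full replicate list, these are 4.61, 6.82 and 4.85, or 5.43 ± 1.21 (SD, n = 3). A gene counts as bound there by any summit of that full list, so weaker regions enter the median. In the IDR list the ratio of RpS27 was 2.77. Ratios of single genes below are from the full replicate lists unless the IDR list is named. RpS27 was the strongest small-subunit gene in all 3 replicates. Its lowest replicate ratio was above the highest replicate ratio of any other gene of the set. The region, at 3R 25247340 to 25247702, had its summit 20 bp upstream of the TSS and at an offset of -166 bp from that of Nup37, which encodes a nuclear pore protein.

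RpS4, for a protein of the body, had an IDR signal of 586 (rank 1678) and replicate signals of 320, 131 and 153, a ratio of 3.38 ± 0.159 (SD, n = 3). RpS25, for a protein of the head that many viral internal ribosome entry sites need in other species, had an IDR signal of 578 (rank 1721) and replicate signals of 264, 151 and 151. RpS7, for a protein of the body, had an IDR signal of 456 (rank 2309) and replicate signals of 271, 116 and 66.8. The ratios of RpS25, 2.73, 3.75 and 3.51, overlapped those of RpS4, 3.32, 3.26 and 3.56. RpS7 was near RpS4 in replicates 1 and 2 (2.81 and 2.87) and lower in replicate 3 (1.56). Their summits lay in the first exon at 16 bp downstream for RpS4 and upstream of the TSS by 36 and 6 bp (offsets of -36 and -6) for RpS25 and RpS7.

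The remaining 4 of the 8 strongest are copies of paralogous pairs and are given with their partners. Below them came RpS23 (447), for a protein of the decoding centre, RpS18 (413) and RpS16 (383) for head proteins at the subunit interface, and RpS20 (365), for a head protein. RpS21 (314), RpS15 (306) and RpS9 (283) followed. RpS9 encodes a protein at the mRNA entry. These 7 genes thus spanned IDR signals from 283 to 447.

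The lower IDR signals were 264 at RpS3A and 261 at RpS2, for proteins of the platform and the mRNA entry, and 251 at sta, which encodes the homolog of the laminin receptor precursor. They were 249 at RpS29, 236 at RpS12 and 202 at RpS6. RpS12 is known in flies for its part in competition between cells, and RpS6 encodes the phosphorylated protein read as a mark of growth signalling.

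Most of the 26 bound genes were found in every replicate. The IDR list keeps regions that recur between replicates, so such matches are partly built in. The share over all bound genes is not given here, so nothing particular to these genes can be read from the counts. A summit lay within 100 bp of the IDR summit in all 3 full replicate lists for 22 genes and in 2 of them for 4 genes, RpS16 and RpS20 among them. In the strongest 8091 regions the match held in 3 replicates for 19 genes, in 2 for 6 genes and in 1 for 1 gene. RpS16 lacked any summit in replicate 3, and the summit of RpS20 moved from 132 bp upstream (offset -132) in replicate 1 to an offset of 4 bp in replicate 2 and -120 bp in replicate 3. Across the 23 bound genes with a summit in all lists, Spearman's rho of the signal was 0.783 between replicates 1 and 2, 0.649 between 1 and 3 and 0.866 between 2 and 3. This is a description across genes, which share the libraries and the control, and has no p.

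**Figure D2:**
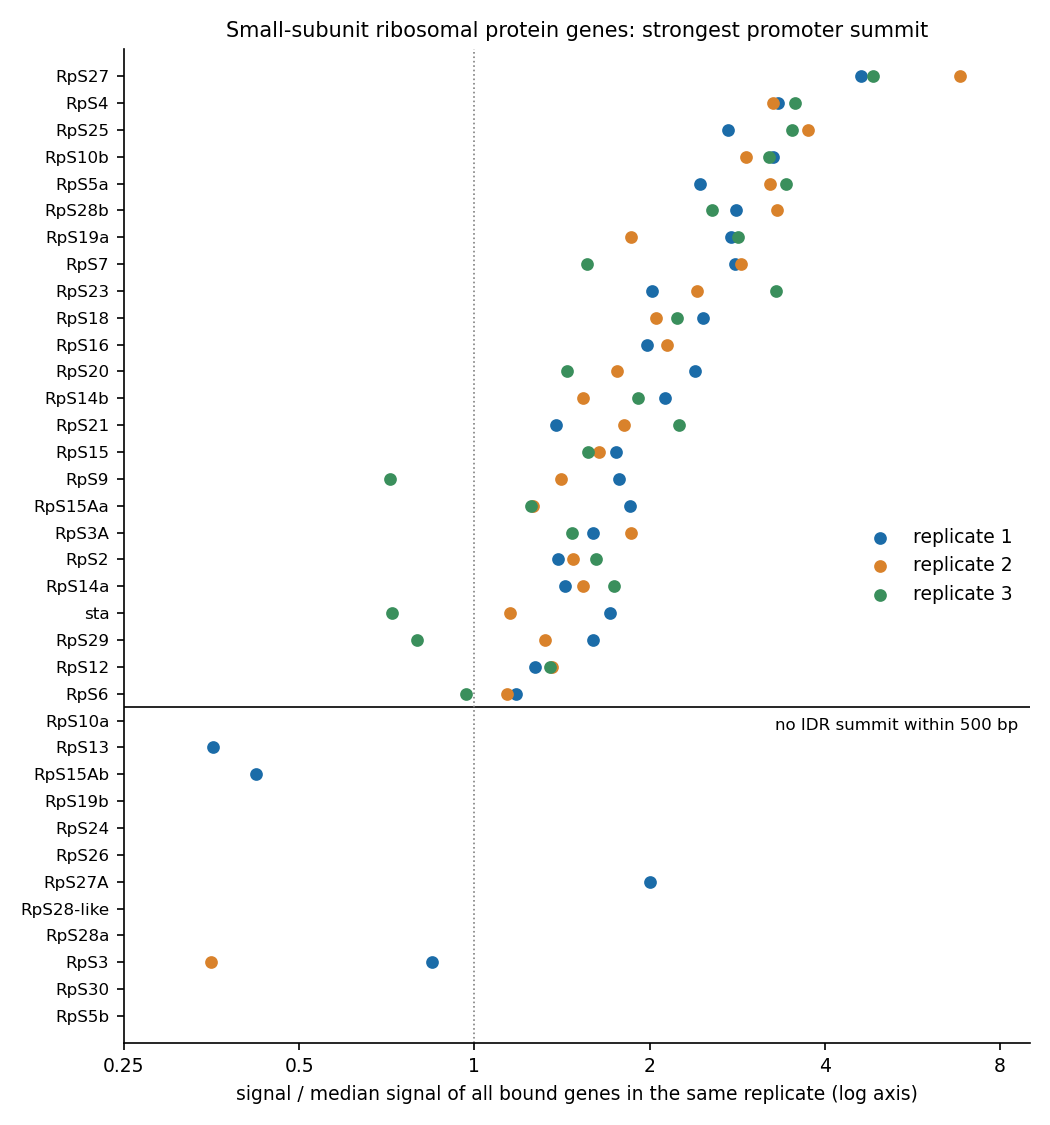
Signal of the strongest summit within 500 bp of a TSS of each small-subunit gene, divided by the median of all bound genes in the same full replicate list (horizontal axis, log scale), with 1 point per replicate and 36 genes in order of IDR signal. Bound in this median means any summit of that full list, so weaker regions enter it. RpS27 lies at 4.61 to 6.82, and of the genes without an IDR summit (below the line) RpS27A lies at 2 in replicate 1 only.

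In each of the 6 paralogous pairs at least 1 copy was bound. Both copies were bound for RpS14, and 1 copy was bound for the other 5 pairs. Each bound copy lies on X, and each unbound copy lies on an autosome. Among the 27 genes in no pair, 19 were bound and 8 were not.

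RpS10b, for a head protein at the mRNA entry, had an IDR signal of 560 (rank 1787) and signals of 314, 118 and 138 in replicates 1, 2 and 3, and RpS10a had no summit in any list. RpS5a, for a head protein at the mRNA exit, had an IDR signal of 520 (rank 1948) and replicate signals of 235, 130 and 147, and RpS5b had none in any list. The lowest ratio to the median of all bound genes in any full replicate list was 2.93 for RpS10b and 2.44 for RpS5a. In the IDR list these ratios were 1.67 and 1.55. RpS28b, for a small head protein, had an IDR signal of 511 (rank 1999) and replicate signals of 272, 133 and 110, and RpS28a had none in any list. RpS19a, whose human counterpart is mutated in Diamond-Blackfan anaemia, had an IDR signal of 460 (rank 2294) and replicate signals of 266, 74.9 and 122. RpS19b had no summit within 500 bp in any list, and the nearest IDR summit lay 885 bp from its TSS.

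RpS15Aa, for a protein of the body, had an IDR signal of 275 (rank 4221) and replicate signals of 179, 50.8 and 53.7. RpS15Ab had a summit in replicate 1 only, with a signal of 40.6 (rank 17347 of 30000), at an offset of -217 bp from the TSS. The ratio to the median of all bound genes was 1.85 for RpS15Aa and 0.421 for RpS15Ab in the full list of that replicate. In the IDR list RpS15Aa was below the median of all bound genes, at a ratio of 0.82. The promoter of RpS15Ab held 4 copies of the DRE core, against 1 in that of RpS15Aa.

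RpS14a and RpS14b are closely related genes in tandem, for a platform protein. RpS14a had an IDR signal of 258 (rank 4539) and replicate signals of 138, 62.3 and 74.8, and RpS14b had an IDR signal of 360 (rank 3066) and replicate signals of 205, 62.1 and 82. RpS14b was higher in replicate 1 and near RpS14a in the others. The full-list ratios of RpS14a and RpS14b, 1.57 ± 0.157 and 1.86 ± 0.298 (SD, n = 3), overlapped. In the IDR list the ratios were 0.769 for RpS14a, below the median of all bound genes, and 1.07 for RpS14b. Whether reads could have been placed at either copy was not tested. Their regions are separate, at X 7933698 to 7933822 and 7934714 to 7935183.

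The nearest IDR summit of the 13 unbound genes lay at a median distance of 12213 bp, from 885 bp at RpS19b to 17289 bp at RpS30. It lay at 1593 bp for RpS3 and 1979 bp for RpS13. The distance over all unbound protein-coding genes is not given here, so nothing particular to these genes can be read from it. Of the 13 genes, 5 had a summit within 500 bp in another list, and 8 had none in any list. The 8 were RpS5b, RpS10a, RpS19b, RpS24, RpS26, RpS28a, RpS28-like and RpS30. RpS30 encodes a ribosomal protein made as a fusion with a ubiquitin-like protein, and RpS26 one at the mRNA exit. RpS24, for a protein of the body, and the annotated but little-described RpS28-like complete the 8.

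RpS3, which encodes a head protein at the mRNA entry, came nearest to the IDR threshold from below by pooled rank. It had a pooled signal of 102 (rank 12068), signals of 81.6 in replicate 1 and 14.2 in replicate 2, and none in replicate 3. RpS13, for a body protein, had a pooled signal of 42.5 (rank 27378) and a signal of 34.3 in replicate 1. Their pooled summits lay 167 and 310 bp downstream of the TSS, farther than any IDR summit of a bound gene.

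RpS27A, which encodes a ribosomal protein fused to ubiquitin, had a signal of 193 in replicate 1 (rank 3181, offset -41 bp), at a ratio of 2. It had no summit in replicates 2 and 3 or in the pooled list, although it ranked among the strongest 8091 regions of replicate 1. The same was seen more widely, since 355 of 2893 genes (12.3%) with a summit in the strongest regions of replicate 1 had none in the pooled list, against 8.04% for replicate 2 and 4.92% for replicate 3. All 5 unbound genes with any summit had one in replicate 1, 1 had one in replicate 2 and 0 in replicate 3.

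Bound genes had more annotated start sites and were longer than unbound ones. The median number of start sites was 2 for bound and 1 for unbound genes, and more than 1 was annotated for 16 of 26 and 4 of 13. Of all bound genes, 1211 of 2519 had 1 annotated TSS, beside 10 of these 26. The unbound copies of paralogs and RpS28-like each had 1. A gene is called bound by any of its start sites, so more of them can raise the call by construction. With canonical start sites only, the count of bound genes was 26 too. The median gene length was 1509.5 bp and 912 bp. Gene length and start sites thus move with the binding call, and their part in it was not tested.

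The summits lay close to the start of transcription. The median distance from the strongest IDR summit to the nearest TSS of the gene was 19.5 bp for the 26 small-subunit genes and 169 bp for all 2519 bound genes. It was within 50 bp for 22 of the 26 (84.6%), against 15.8% of all bound genes, and within 150 bp for all 26, against 44.8%. The farthest were RpS20 (132 bp) and RpS6 (125 bp). In the strongest 8091 regions of replicates 1, 2 and 3 the median distance was 38, 19 and 28.5 bp, or 28.5 bp ± 9.5 (SD, n = 3), against 167 bp ± 9.29 (SD, n = 3) for all bound genes. Every replicate of the small-subunit genes was thus nearer to the TSS than any replicate of all bound genes.

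A gene with many start sites, or one beside a stronger promoter, could differ here by construction, and both were measured. Among genes with 1 annotated TSS the median distance was 35.5 bp for 10 small-subunit genes and 168 bp for 1211 bound genes, and 7 of the 10 (70%) were within 50 bp, against 13.5%. With each summit given only to its nearest gene, the 26 genes stayed at 19.5 bp and all 2033 bound genes were at 152 bp. The large-subunit genes had a median of 21 bp in the IDR list and the mitochondrial small-subunit genes 248 bp. In the equal-length replicate lists these were 34.3 bp ± 3.51 and 238 bp ± 13.7 (SD, n = 3), so the cytosolic subunits differed by less than the replicate spread.

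**Figure D3:**
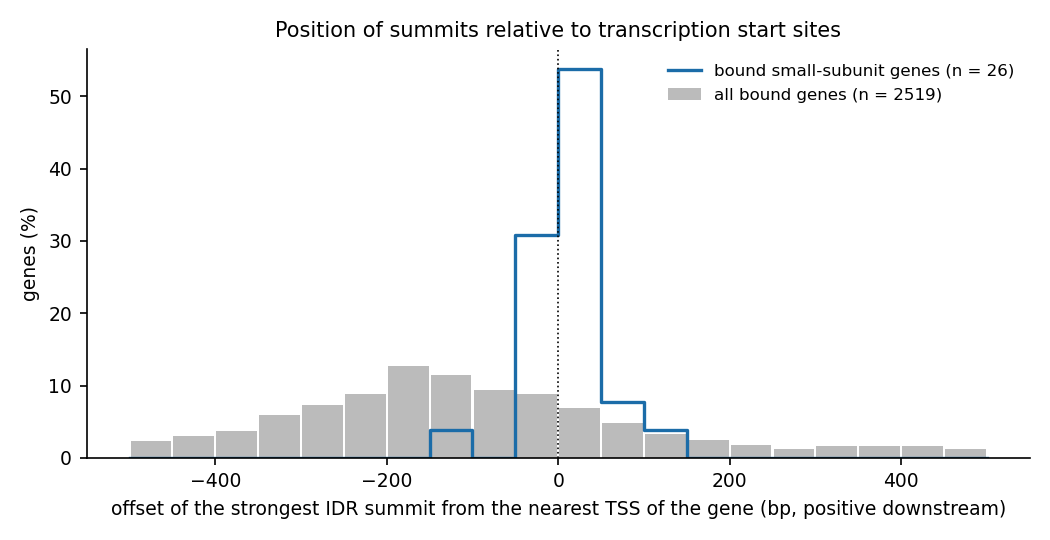
Offset of the strongest IDR summit from the nearest TSS (horizontal axis, bp, positive downstream) as the percentage of genes in 50-bp bins (vertical axis), for 26 bound small-subunit genes (line) and all 2519 bound genes (bars). The small-subunit genes peak in the bins on either side of the TSS, with 30.8% and 53.8%, where all bound genes have 8.85% and 6.83%.

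The side of the TSS was less stable than the distance. In the IDR list 17 of 26 summits (65.4%) lay downstream of the TSS, against 26.2% of all bound genes. They fell in an exon of the 5' untranslated region for 13 genes, in an intron for 4 and upstream for 9. In the strongest 8091 regions of replicates 1, 2 and 3 the downstream counts were 16 of 28, 12 of 25 and 7 of 20, or 46.7% ± 11.1 (SD, n = 3), against 24.8% ± 1.85 (SD, n = 3). The offsets of these genes are small, so that RpS10b was at 3 bp in the IDR list and at -15, -19 and -30 bp in the replicates. The large-subunit genes were downstream in 28.6% of cases in the IDR list and in 32.8% ± 8.91 (SD, n = 3) in the equal-length lists. There the ranges of the subunits overlapped, but within each replicate the small-subunit share was the higher. In replicates 1, 2 and 3 it was 57.1%, 48% and 35%, against 41.9%, 24.1% and 32.3% for the large subunit.

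The 11 bound genes of highest IDR signal had regions narrower than the width most common in the IDR list. Widths ran from 125 bp at RpS14a to 470 bp, which is that most common width, and 14 of the 26 had 470 bp. RpS5a and RpS20 had 2 IDR summits within 500 bp, and the other 24 had 1.

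Other genes shared some of these summits. The strongest summit lay within 500 bp of the TSS of another protein-coding gene for 9 of the 26 (34.6%), against 937 of 2519 bound genes (37.2%). The pairs were RpS27 with Nup37, RpS25 with CG4820, RpS16 with CG4294, RpS18 with plu, RpS14a with Dhdds, RpS19a with Rok, RpS20 with CG17271, RpS21 with CG3104 and sta with inc. In each of these 9 pairs of protein-coding genes the summit was nearer to the TSS of the ribosomal protein gene. The nearest to equal was RpS20, whose summit had offsets of -132 bp from its own TSS and -201 bp from that of CG17271. The summit of RpS27 also had an offset of -70 bp from the noncoding RNA sisRNA:CR46364. Summits at RpS29, RpS12 and RpS6 also lay within 500 bp of the start of an annotated snoRNA, a class of RNAs that guide rRNA modification and are often encoded in introns of such genes. The offsets were -279 bp from snoRNA:Psi18S-1275 at RpS29 and -215 bp from snoRNA:Me28S-A774b at RpS12. At RpS6 the summit was nearer to other starts than to its own, with offsets of -3 bp from snoRNA:Or-aca2 and 96 bp from the pseudogene CR33222, against 125 bp from the TSS of RpS6.

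The letters around the summits were read on dm6 within 100 bp on either side, on both strands. The 5-base core CACTG, in which Motif 1 ends when a G follows it, was present at 11 of 26 summits (42.3%), against 42.2% of all bound genes. In whole promoters, from 250 bases before to 50 from the TSS, it was present in 12 of 26 bound (46.2%) and 6 of 13 unbound genes (46.2%), against 46.5% of all promoters. The difference between bound and unbound genes, 0 percentage points here, depended on the setting. It was -22.9 points without replicate 1 or without replicate 2, -6 points without replicate 3, and 23.1 points when 150 bp on either side of the TSS were searched. Without replicates 1, 2 and 3 in turn the bound genes also changed, to 20, 20 and 25. With peaks matched in all 3 replicates the difference was -22.9 points as well, so the shift cannot be assigned to 1 replicate.

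The DRE core ATCGAT was present at 11 of the 26 summits (42.3%), against 10.8% of all bound genes. These were RpS2, RpS7, RpS9, RpS10b, RpS12, RpS14a, RpS15Aa, RpS19a, RpS25, RpS28b and RpS29. In replicates 1, 2 and 3 it was at 11 of 31, 11 of 26 and 11 of 24 summits, against 13%, 10.5% and 10.4% of all bound genes. Because the summits of these genes lie near the TSS, other bound genes with a summit within 50 bp of the TSS were counted too, without ribosomal protein genes of either cytosolic subunit. There it was present at 48 of 349 (13.8%), against 11 of 22 (50%) of the small-subunit genes with such a summit.

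The DRE core was nearly as frequent in unbound genes. It was present in the promoters of 11 of 26 bound (42.3%) and 5 of 13 unbound genes (38.5%), against 22.4% of all promoters, and the unbound ones were RpS13, RpS15Ab, RpS24, RpS28-like and RpS30. Of these 16 promoters, 15 had their nearest copy upstream of the TSS and 14 within 100 bp upstream, with a median start at -54 bp. Among the 11 bound genes with a copy within 100 bp of the summit, which caps this distance, the centre of the nearest copy lay 14 bp (RpS28b) to 90 bp (RpS15Aa) from the summit, with a median of 58 bp. The median IDR signal was 283 for the 11 bound genes with a copy near the summit and 360 for the 15 without.

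Motif 1, searched as GGTCACACT, was present at 3 summits, those of RpS23, RpS15 and RpS9 (11.5%, against 1.98% of all bound genes). In whole promoters it was present in 4 bound genes (15.4%), the fourth being sta, and in 0 of 13 unbound ones, against 5.74% of all promoters. Neither the 5-base core, the DRE core nor Motif 1 was found at 7 summits, among them those of RpS4, RpS20, RpS21, RpS27 and sta. The regions of highest signal, at RpS27 and RpS4, were thus among those without any of these letters.

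The GAGA element, searched as GAGAG, was present at 4 of 26 summits (15.4%), against 29.6% of all bound genes, and the TATA box, searched as TATAAA, at 3 (11.5%), against 31.2%. Among the other bound genes with a summit within 50 bp of the TSS these shares were 32.7% and 22.1%. In whole promoters the GAGA element was present in 3 of 26 bound genes (11.5%) and 0 of 13 unbound ones, against 30.9% of all promoters. TATAAA on either strand was present in 15 of 26 bound (57.7%) and 4 of 13 unbound promoters (30.8%), against 45.1% of all promoters.

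**Figure D4:**
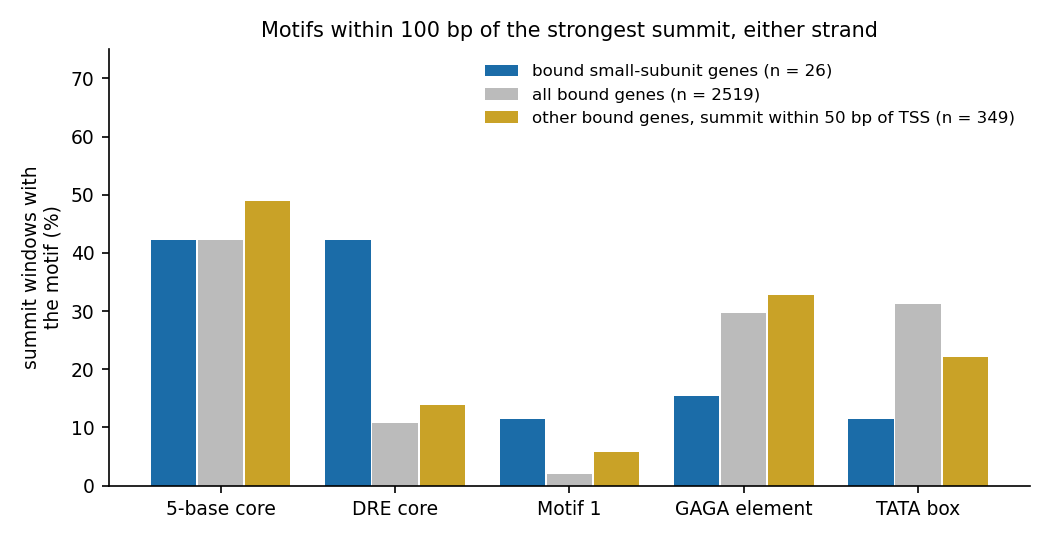
Share of strongest IDR summits with each motif no more than 100 bp away (vertical axis, percent) for 26 bound small-subunit genes, all 2519 bound genes and 349 other bound genes with a summit within 50 bp of the TSS. The DRE core is at 42.3%, 10.8% and 13.8%, and the 5-base core at 42.3%, 42.2% and 49%.

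At the start itself the pyrimidine-rich letters CTTT, on the sense strand in the first 25 transcribed bases, were present in 22 of 26 bound (84.6%) and 8 of 13 unbound genes (61.5%), against 12.1% of all promoters. They were missing at RpS2, RpS20, RpS21 and sta among the bound genes, and at RpS10a, RpS15Ab, RpS19b, RpS28-like and RpS30 among the unbound. The unbound genes without them included 3 second copies of paralogs. Among bound genes with a summit within 50 bp of the TSS they were present in 19 of 22 small-subunit genes (86.4%) and in 54 of 349 others (15.5%). Within 3 bp of the annotated TSS, CTTT began in 4 of 26 bound and 4 of 13 unbound genes, against 3.36% of all promoters. The other initiator, searched as TCAGT there on the sense strand, was in 0 of the 39, against 9.8% of all promoters. TCAGT overlaps the 5-base core, read on the other strand, when G follows.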

How the data were processed

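ChIP-seq regions from 3 biological replicates of 1 group were used. The signal of each region is as deposited by the authors, and per the file headers each replicate list was called against a shared control, a list was made from the pooled replicates, and the IDR list was derived from these. Which aligner and caller were run is not given in the sources used here. Only the dm6 lists were used. The dm3 lists, the coverage tracks and the control were not analysed here. Depth is unknown. Intervals on shares (95% Wilson) cover counting error only. They treat genes as independent draws, although the set was chosen with results known, so they are no basis for comparing groups.

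Start sites were taken from Ensembl release 115 and sequence from the Release 6 genome. Genes with a summit no more than 500 bp from an annotated TSS were called bound, and the strongest such summit was described. Signals were divided by the median of all bound genes in the same list, with bound taken from that list. Replicate summits were matched within 100 bp. The procedures were tested on simulated data.

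The genes, lists and motifs were chosen with earlier results of these data known, so no test was made over them. Full values are given for the 8 bound genes of highest signal, both genes of each pair and unbound genes with a summit in any list, and other genes are named where they share a summit. Values of 3 genes are not reported here, but the counts and medians include them. The sequences shown were chosen after values were seen, as were the CTTT search over 25 bases, the assignment of summits to the nearest gene, the genes with 1 TSS and the comparison with other genes bound near the TSS. Head and body assignments are from general knowledge. Alternatives were other windows and start sites, stronger or matched peaks, the pooled list, other matching distances and motif windows, and each replicate left out. The tools were pandas 2.3.3, numpy 2.4.6, scipy 1.17.1 and matplotlib 3.10.9 under Python 3.11.15.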

Additional observations from a re-analysis of the deposited data

How the results depend on the processing

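Of 58 alternative values, 42 stayed within the spread between replicates or within 1.5 times the count, and 16 moved. The spread was taken from the strongest 8091 regions of each replicate, a choice made after that of the full lists had been seen. With the strongest 4000 IDR peaks, 15 genes were bound by construction, the signal ratio to all bound genes was 0.792, the median distance 35 bp and the share of promoters with the 5-base core, bound minus unbound, -14.2 percentage points (0 as reported). In the full pooled list the signal ratio was 1.74, because weaker regions enter the median of all bound genes. With peaks matched in all 3 replicates the ratio was 0.771 and the core difference -22.9 points. Leaving out each replicate gave ratios of 0.71 to 0.861, core differences of -22.9 to -6 points and 20 to 25 bound genes. With canonical start sites only the distance was 35.5 bp. The 5-base core was found at 5 summits within 50 bp and 17 within 150 bp, by the size of the window, and the core difference was 23.1 points for 150 bp on either side of the TSS. Where no construction is named, the cause was not tested. The count of bound genes was 26 to 28 with other windows, start sites or the pooled list. With summits given to the nearest gene only, chosen after seeing the data, it was 26. No paired analysis was possible because there is 1 group.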
